A study of Mus musculus with 34 samples.

Results

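Described here are 9 liver genes: those for the secreted stress hormones Fgf21, Gdf15 and Stc2, the FGF21 co-receptor Klb and the liver FGF receptor Fgfr4, the lipoprotein genes Angptl4, Angptl8 and Vldlr, and the stress-inducible mTORC1 inhibitor Ddit4. They were chosen by symbol, 9 of the 55487 gene IDs in each of 2 deposited tables, and every symbol matched 1 ID. Liver mRNA was sequenced from male mice 3 months old, fed chow freely and injected intraperitoneally. The first table holds 22 libraries: 6 of wild-type (WT) mice given PBS, 6 of WT mice 2 hours after TNFa, 5 of PiZ mice given PBS, and 5 labelled PiZ p50KO, PiZ mice with a knockout of p50, also given PBS, so both PiZ groups share the transgene and the vehicle. The second holds 6 libraries of WT mice given DMSO and 6 of WT mice 24 hours after tunicamycin. No time after injection is given for the PBS and DMSO libraries, so whether collection times matched is not known. PiZ mice carry a transgene of human alpha-1 antitrypsin in its Z form, which polymerizes in the endoplasmic reticulum (ER) of hepatocytes. p50 is the short product of Nfkb1, a DNA-binding subunit of NF-kB. Each table is its own batch in the labels, and libraries were compared only within a table. The labels name separate libraries but no animal behind each, so p-values measure the spread between these libraries, which may be technical.

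FGF21 is a hormone that hepatocytes release in fasting and under ER or mitochondrial stress, and it signals through FGF receptors that hold beta-klotho, the product of Klb. FGFR4 with beta-klotho is the hepatocyte's receptor for the intestinal hormone FGF15, which represses bile acid synthesis. GDF15 acts on the hindbrain to lower food intake. When proteins misfold in the ER, the kinase PERK and then the transcription factors ATF4 and CHOP raise genes such as Fgf21, Gdf15, Ddit4 and Vldlr, and Stc2 is raised by the same pathway in other cells. ANGPTL4 and ANGPTL8 restrain lipoprotein lipase, ANGPTL4 being a fasting gene driven by PPAR-alpha and ANGPTL8 a gene of the fed state. VLDLR takes up triglyceride-rich lipoproteins, and DDIT4, also called REDD1, restrains mTORC1 through the TSC complex. Tunicamycin blocks N-linked glycosylation and thereby misfolds proteins in the ER, while TNFa is an inflammatory cytokine that acts largely through NF-kB.

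The promoter letters are shown first because a stress response through ATF4 is usually read at its composite element with C/EBP proteins, TGATGNAA. RefSeq promoter windows (GRCm38.p6, 250 bases before to 50 after a start) were found for 8 of the 9 genes, in 10 windows, and not for Angptl4. On either strand, 3 of the 10 windows held the composite letters, in Fgf21, Angptl8 and the second annotated start of Vldlr, as did 3.97% of all 32851 windows. The stretches below run 5′ to 3′ on the gene's strand, with the composite letters and any TATA box (TATAAA) in capitals.
Fgf21, chr7:45615491-45615650, minus strand, bases -160 to -1: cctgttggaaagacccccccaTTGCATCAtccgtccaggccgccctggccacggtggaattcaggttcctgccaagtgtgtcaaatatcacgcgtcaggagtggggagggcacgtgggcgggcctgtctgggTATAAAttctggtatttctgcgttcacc
Angptl8, chr9:21835350-21835509, plus strand, bases -160 to -1: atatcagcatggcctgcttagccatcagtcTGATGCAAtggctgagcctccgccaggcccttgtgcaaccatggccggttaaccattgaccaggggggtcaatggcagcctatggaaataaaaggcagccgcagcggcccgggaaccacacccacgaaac
Vldlr, chr19:27216810-27216837, plus strand, bases -210 to -183 of the second start: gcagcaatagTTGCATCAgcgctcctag
In Fgf21 and Vldlr the element lies on the opposite strand, so it reads as its reverse complement, at bases -139 to -132 and -200 to -193, and in Angptl8 it lies at -130 to -123. The Fgf21 window was the 1 of the 10 with a TATA box, at -28 to -23, against 13.6% of all windows, and the 1 with letters of the loose NF-kB motif, against 4.79%. The hypoxia letters ACGTG, which also form part of the unfolded protein response element TGACGTGG, were in 4 of the 10 windows (Fgf21, Gdf15, Ddit4 and Fgfr4), against 19.6% of all. No member window held TGACGTGG, the ER stress element or the DR1 PPAR element, which 0.68%, 0.12% and 0.04% of all windows held. These matches describe letters and were not tested as binding sites.

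Values are log2 CPM, the log2 of a gene's reads scaled to the library's total in M reads (CPM). Apart from WT PBS 2, the libraries of the first table held 35.5 to 54.0 M reads, of which 97.3% to 97.8% lay on protein-coding genes, and those of the second 34.3 to 47.8 M. WT PBS 2 held 10.2 M reads, 72.2% on protein-coding genes, and stands apart from the rest. Values are without it unless its inclusion is stated, and with it no member of the first table was called except Fgf21 in PiZ against TNFa, at 2.74 (adjusted p = 0.0188). Fgf21 passed the filter on low values there only through libraries of the PiZ groups and WT PBS 2, so that call is not taken as a result. All 11 hepatocyte markers found in the tables had reads in every library. In WT PBS 2 they summed to 9570 CPM, against 103026 to 131348 CPM in the other WT PBS libraries. Skeletal muscle markers summed to 264 CPM in WT PBS 2 (0.02 to 0.20 CPM in the others). Adipocyte markers summed to 159 CPM (0.67 to 2.39 CPM) and lymphocyte markers to 84.9 CPM (0.80 to 2.22 CPM). Nfkb1 read 3.92 to 4.34 in WT PBS without that library, and 4.62 to 5.58 in PiZ. It read 4.51 and 4.86 in the libraries labelled PiZ p50KO 1 and 2, which is not below WT, and 3.31 to 3.74 in 3 to 5. Reads were summed over the whole gene, so this does not show whether the disrupted part is transcribed. In the comparison with PiZ, member values and the counts of the lists on ATF4 and CHOP, PPAR-alpha and p53 are also given without libraries 1 and 2. After TNFa, Nfkb1 read 6.57 to 6.95 in 5 libraries and 4.77 in WT TNFa 4. The median fold change of all genes on the log2 scale was 0.40 in PiZ against WT PBS, -0.02 after TNFa, -0.22 in PiZ p50KO against PiZ and 0.38 after tunicamycin. Shifting the libraries to the same median moved these to -0.09, -0.08, 0.04 and -0.07.

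After tunicamycin, Fgf21, Gdf15, Ddit4, Angptl4 and Vldlr rose and Fgfr4 fell. Angptl8 passed narrowly, and Klb and Stc2 did not. Of the 7 members with enough reads for the fit across all genes, 5 were called higher, against 45.3% of all 13388 genes tested, and 1 lower, against 13.5%. Genes called numbered 6067 higher and 1802 lower, or 3233 and 3913 with the libraries shifted to the same median. Under that shift 4 members were called higher, with Angptl8 lost. Where groups are said below not to overlap, this describes the gene alone, since the share of all genes without overlap is not given.

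**Figure D1:**
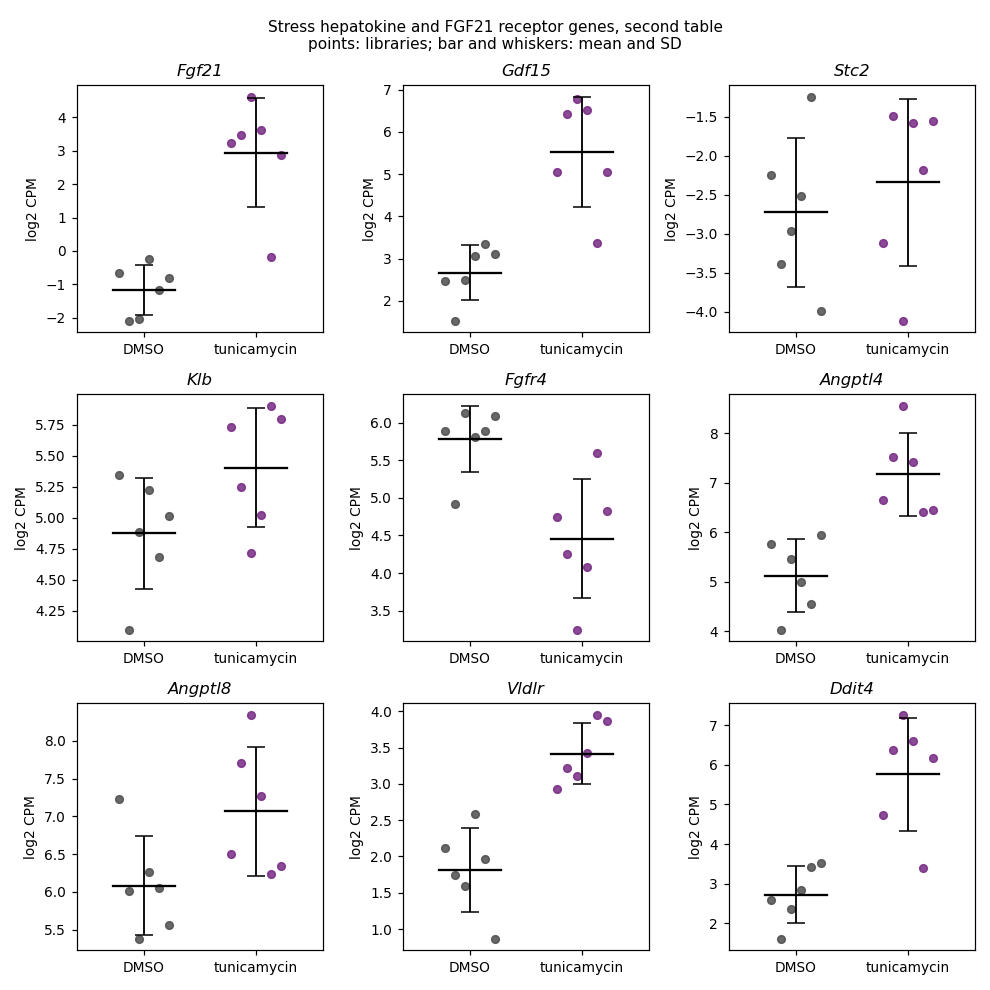
Levels in log2 CPM of the 9 genes in the 6 DMSO and 6 tunicamycin libraries, 1 point per library with the mean and SD. Fgf21 has 1 tunicamycin library at -0.17, near the DMSO libraries, and the other 5 between 2.87 and 4.63.

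Fgf21 lies on the minus strand of chr7:45613886-45615490 (GRCm38). It had 8 to 31 reads in the DMSO libraries, from -2.09 through a median of -0.99 to -0.23 log2 CPM. The tunicamycin libraries had 42 to 1077 reads, from -0.17 through a median of 3.35 to 4.63. Every tunicamycin library lay above every DMSO library, although library 1647 (1 of 3 libraries, with 1643 and 1667, whose label fields disagree on the replicate and which are named by number) did so narrowly. Too few libraries passed 1 CPM for the fit across all genes, so the 2 groups were compared alone. Their means were 2.94 ± 1.63 and -1.16 ± 0.76 (SD, n = 6 each), a geometric mean of 7.69 against 0.447 CPM, and the exact two-sided permutation test gave p = 0.002165, the smallest these group sizes can give. Without any filter limma gave a difference of 4.11 ± 0.60 (SE) with an adjusted p of 0.000112. Acinar cells of the pancreas also make Fgf21, and markers of that cell type rose in the same libraries. Their sum over 13 genes was 10.2 to 27.9 CPM in the DMSO libraries and 10.6 to 1384 CPM after tunicamycin, with 6 of 7 tested markers called higher. The tunicamycin library with the least, replicate 1 at 10.6 CPM and with 11 of the 13 at 0 reads, had Fgf21 at 3.24 log2 CPM, above all DMSO libraries, and the part of that cell type in the Fgf21 values of the other libraries was not tested.

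Gdf15 (minus strand, chr8:70629393-70632456) went from 1.53 to 3.34 log2 CPM, median 2.78, in the DMSO libraries to 3.37 to 6.78, median 5.74, after tunicamycin. The groups did not overlap, with library 1647 lowest among the treated. Its log2 fold change was 2.86 ± 0.52 (SE, adjusted p = 0.00046, limma), or 7.27-fold. Ddit4 (minus strand, chr10:59949669-59951834) read 1.61 to 3.53, median 2.72, in DMSO and 3.41 to 7.26, median 6.27, after tunicamycin. Here library 1647, at 3.41, fell inside the DMSO range while the other 5 lay above it, and the log2 fold change was 3.03 ± 0.56 (adjusted p = 0.000537), or 8.19-fold. Stc2 (minus strand, chr11:31357307-31370074), a secreted inhibitor of the IGF-releasing protease PAPP-A, had 2 to 18 reads in the DMSO and 2 to 15 in the tunicamycin libraries. The groups overlapped over nearly their whole range, and the difference of 0.39 log2 CPM gave p = 0.5281 in the exact two-sided permutation test, with a sign that turned to -0.06 when the libraries were shifted to the same median.

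Of the FGF receptor pair Fgfr4 fell and Klb did not pass. Fgfr4 (plus strand, chr13:55152640-55168759) read 4.92 to 6.12 log2 CPM, median 5.89, in the DMSO libraries and 3.24 to 5.59, median 4.50, after tunicamycin. Only library 1647, at 5.59, and DMSO 2, at 4.92, crossed into the other group's range. The fold change was -1.33 ± 0.33 (adjusted p = 0.00376), that is 0.399 of the DMSO level, and it was -1.78 with the libraries shifted to the same median. Klb (plus strand, chr5:65348314-65384007) read 4.10 to 5.35, median 4.95, in DMSO and 4.71 to 5.90, median 5.49, after tunicamycin. These ranges overlapped, and the difference of 0.53 ± 0.25 (adjusted p = 0.0782) shrank to 0.08 under the shift. Klb was called higher when tunicamycin 6 was left out, at 0.67 (adjusted p = 0.0287).

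Angptl4 (minus strand, chr17:33773750-33781830) read 4.02 to 5.95 log2 CPM, median 5.22, in the DMSO libraries and 6.40 to 8.56, median 7.04, after tunicamycin. Every treated library was above every control, and the fold change was 2.04 ± 0.40 on the log2 scale (adjusted p = 0.00077), or 4.13-fold. Vldlr (plus strand, chr19:27216484-27254231) also separated the groups, from 0.86 to 2.58, median 1.85, to 2.93 to 3.96, median 3.32. It rose by 1.61 ± 0.27 (adjusted p = 0.000273), or 3.05-fold, and library 1647, lowest for Fgf21, Gdf15, Ddit4 and both Angptl genes, was highest for Vldlr. Angptl8 (plus strand, chr9:21835510-21837347) lies inside Dock6 on the other strand, and whether counting used strand is not given in the sources used here, so reads of the pair cannot be told apart. It read 5.38 to 7.23, median 6.03, in DMSO and 6.24 to 8.35, median 6.88, after tunicamycin, with overlap. Its rise of 0.98 ± 0.38 (adjusted p = 0.0402) was lost under the median shift, at 0.53 (adjusted p = 0.218). It was also lost when any of DMSO 2 to 6, tunicamycin 5, tunicamycin 6 or library 1643 was left out, at 0.73 to 1.02.

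The wider ER stress genes rose as well. Of 23 tested ATF4 and CHOP targets and regulators, 20 were called higher after tunicamycin, with a median log2 fold change of 2.97 against 0.38 over all genes. The stress factor Atf3 rose by 9.49 ± 0.77, the serine synthesis enzyme Psat1 by 7.61 ± 0.34 and Nupr1, a stress-induced chromatin protein, by 8.02 ± 0.44. Hepatocyte markers summed to 33438 to 84210 CPM in the treated and 104134 to 132838 CPM in the control libraries, with 5 of 11 called lower, and 6 of 14 tested macrophage markers were lower too. In whole liver, fewer cells of a type and less RNA per cell cannot be told apart, and the part of this in the fall of Fgfr4, a hepatocyte gene, was not tested.

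**Figure D2:**
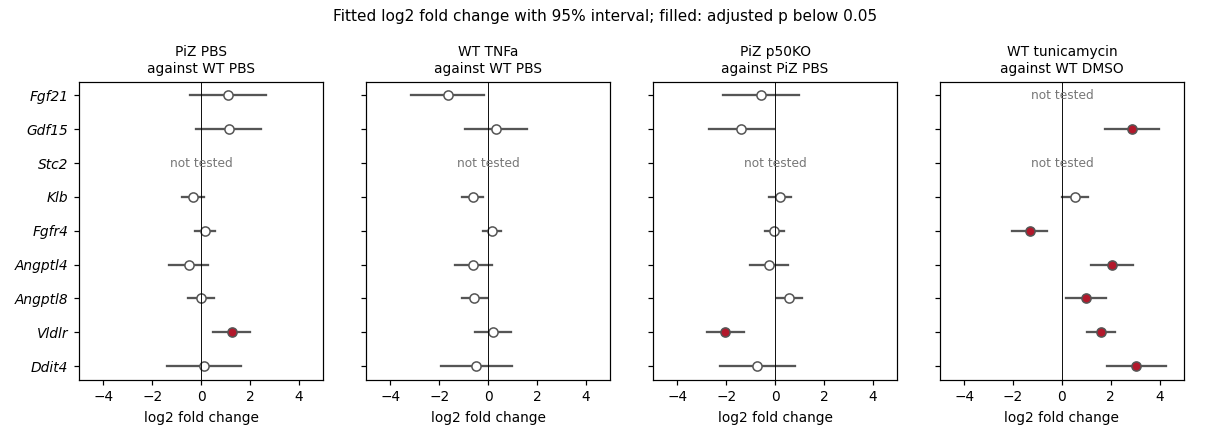
Fitted fold change (log2) with its 95% interval for each gene in 4 comparisons, with filled points for an adjusted p below 0.05 and "not tested" where too few libraries passed 1 CPM. Tunicamycin shows 6 filled points, PiZ against WT and PiZ p50KO against PiZ only Vldlr (1.25 and -2.04, with the PiZ libraries shared), and TNFa none.

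In PiZ mice given PBS, Vldlr was the single member called against WT PBS. That is 1 of 8 members tested higher, against 45.6% of 13285 genes called higher, and none lower, against 6.19%. Over all genes limma called 6064 higher and 822 lower, or 2315 and 2990 with the libraries shifted to the same median, where 0 members were higher and 2, Klb and Angptl4, lower. No member was lower at an unadjusted p below 0.05 either without the shift, and voom on the recovered reads called the same numbers, 1 and 0. Keeping WT PBS 2 left no member called, against 15.1% of genes called higher and 2.22% lower, although 10 of the 24 ATF4 and CHOP genes were called higher. The differences with it were 0.69 for Gdf15, 0.58 for Fgf21, -0.26 for Klb, 0.09 for Fgfr4, -0.12 for Angptl4, 0.56 for Angptl8 and 0.06 for Ddit4.

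**Figure D3:**
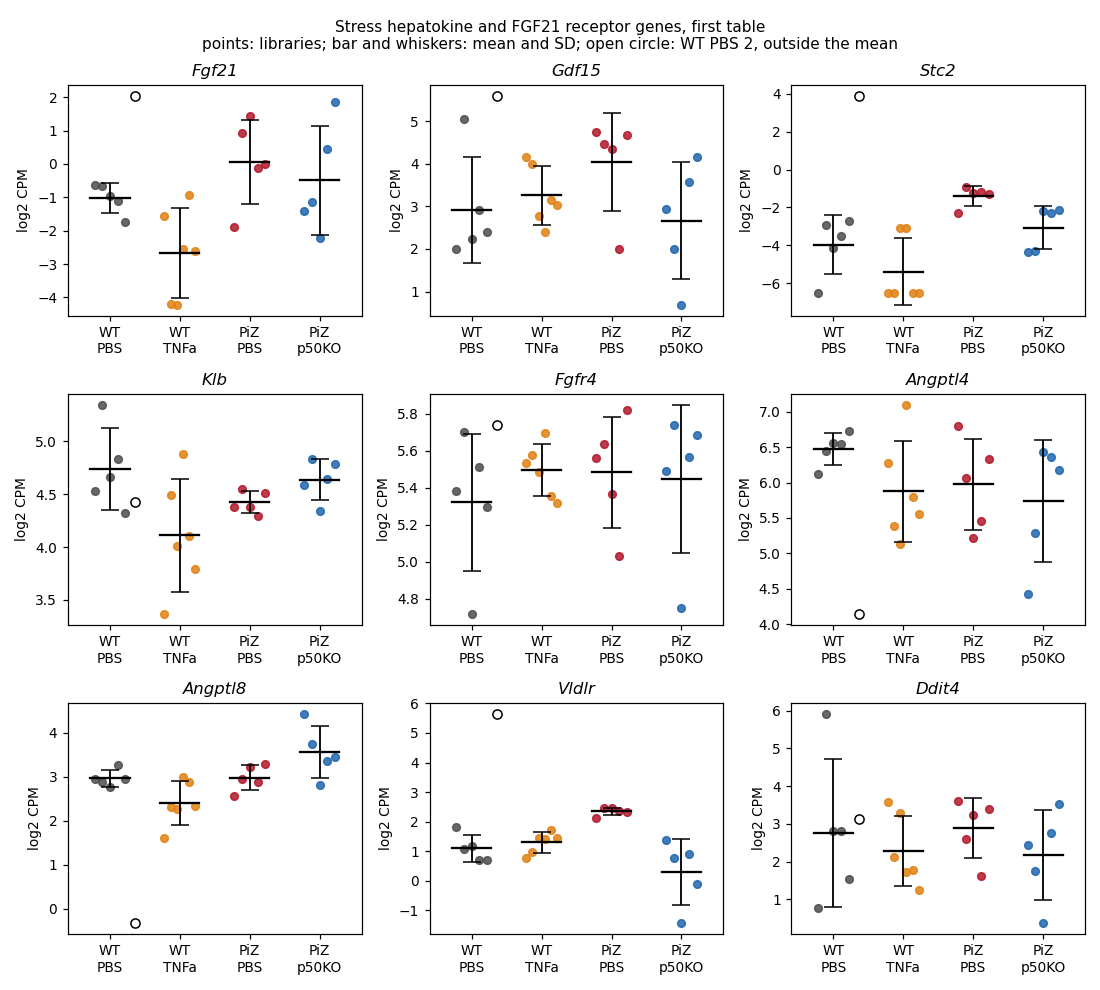
Levels in log2 CPM of the 9 genes in the first table, 1 point per library with the mean and SD, and WT PBS 2 as an open circle outside the mean. Vldlr in PiZ spans 2.13 to 2.46, above the other 3 groups' points except WT PBS 2 at 5.65.

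Vldlr read 1.81, 1.07, 1.19, 0.71 and 0.70 log2 CPM in WT PBS 1, 3, 4, 5 and 6. In PiZ 1 to 5 it read 2.13, 2.45, 2.46, 2.35 and 2.33. The 5 PiZ libraries lay close together and above all of these WT libraries, with 181 to 266 reads against 68 to 189. The log2 fold change was 1.25 ± 0.37 (adjusted p = 0.00723), or 2.38-fold. WT PBS 2 alone read 5.65, and keeping it gave a difference of 0.49 (adjusted p = 0.704). Shifting the libraries to the same median gave 0.76 (adjusted p = 0.0941), so this call depends on the scaling. Markers of other liver cells rose in the same libraries: 15 of 16 macrophage, 10 of 10 stellate cell and 5 of 7 cholangiocyte markers were called higher. The macrophage markers summed to 970 to 1390 CPM against 281 to 349 in WT, and the stellate cell markers to 676 to 989 against 154 to 198. Their part in the Vldlr value was not tested.

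Among the secreted factors, Gdf15 read 1.99, 5.06, 2.23, 2.90 and 2.39 in WT PBS 1, 3, 4, 5 and 6 and 4.74, 4.46, 4.36, 2.01 and 4.68 in PiZ 1 to 5. All but 1 library of each group kept to its own level, WT PBS 3 being as high as PiZ and PiZ 4 as low as WT. The log2 difference of 1.13 ± 0.64 did not pass (adjusted p = 0.144). It passed when either of these was left out, at 1.67 without WT PBS 3 (adjusted p = 0.0243) and 1.64 without PiZ 4 (adjusted p = 0.0271). Fgf21 read -0.64, -0.65, -0.96, -1.12 and -1.75 in WT and -1.88, 0.91, 1.43, -0.13 and 0.01 in PiZ. PiZ 1, with 12 reads, was lower than every one of these WT libraries, and the other 4, with 32 to 130 reads, were higher. The difference was 1.09 ± 0.75 (adjusted p = 0.229), and its sign turned to -0.06 under quantile normalization. Fgf21 passed the filter on low values with 5 libraries, each of them from the 2 PiZ groups.

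Stc2 did not pass that filter but had 9 to 24 reads in every PiZ library and 0 to 6 in WT. It read -6.52 (no reads), -2.93, -4.14, -3.49 and -2.70 log2 CPM in WT PBS 1, 3, 4, 5 and 6 and -2.28, -0.91, -1.24, -1.20 and -1.29 in PiZ 1 to 5. The groups did not overlap, and the exact two-sided permutation test gave p = 0.007937, the smallest possible for 5 against 5, for a difference of 2.57. Without WT PBS 1, which had no reads, the difference was 1.93 (exact permutation p = 0.01587). WT PBS 2, at 3.89 and 151 reads, lay above every PiZ library, and with it the difference was 1.26 (exact permutation p = 0.4848). Ddit4 spread more within WT than between the groups: 0.78, 5.92, 2.81, 2.81 and 1.55 in WT against 3.60, 2.60, 3.24, 1.63 and 3.39 in PiZ. Its difference was 0.12 ± 0.73 (adjusted p = 0.902), negative (-0.37) under the median shift.

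Neither receptor gene passed the test. Klb read 4.53, 5.35, 4.67, 4.84 and 4.32 in WT and 4.38, 4.55, 4.38, 4.30 and 4.51 in PiZ, a difference of -0.31 ± 0.22 (adjusted p = 0.23). Relative to the median gene it was lower, at -0.80 (adjusted p = 0.00338). Fgfr4 read 4.72 to 5.70 in WT and 5.03 to 5.82 in PiZ, and its difference of 0.16 ± 0.19 turned to -0.33 under the median shift. Angptl4 read 6.12, 6.44, 6.56, 6.54 and 6.73 in WT and 6.80, 6.06, 5.21, 5.45 and 6.34 in PiZ, with PiZ 2, 3 and 4 below every WT library. The difference of -0.50 ± 0.38 (adjusted p = 0.272) became -0.99 (adjusted p = 0.039) under the shift. Angptl8 read 2.78 to 3.27 in WT and 2.57 to 3.28 in PiZ, a difference of 0.01 ± 0.25 that was -0.48 (adjusted p = 0.153) under the shift. Hepatocyte markers summed to 74406 to 105756 CPM in PiZ and 103026 to 131348 CPM in WT. Of these markers 6 of 11 were called lower, against 6.19% of all genes. The count was 0 with WT PBS 2 kept, 3 with quantile normalization and 9 under the median shift. The part of these markers' fall in the values of these hepatocyte genes was not tested.

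Counts of the gene lists around the members in PiZ stand against 45.6% of all genes called higher and 6.19% lower. With the libraries shifted to the same median, 2315 of all 13285 genes were called higher and 2990 lower. The counts of the PPAR-alpha, lipoprotein and FGF lists under that shift are not given here. Of 24 ATF4 and CHOP genes, 16 were called higher, with a median log2 fold change of 1.54 against 0.40 over all genes. With the libraries shifted to the same median 11 were called higher and 3 lower. The cystine transporter gene Slc7a11 rose by 6.40 ± 0.89 and the asparagine synthetase gene Asns by 4.99 ± 0.85. Of 23 PPAR-alpha targets, which share regulators with Fgf21 and Angptl4, 11 were lower and 4 higher, with Vnn1 at -3.91 ± 0.33 and the acyl-CoA thioesterase gene Acot1 at -1.89 ± 0.26. In the list of 19 genes on lipoprotein lipase and lipoprotein receptors, 2 of 17 tested were higher and 3 lower. Lpl, the lipase that ANGPTL4 and ANGPTL8 restrain, rose by 3.90 ± 0.31. Among FGF receptors and FGF-responsive genes 5 of 18 were higher, including Dusp4 at 1.37 ± 0.49. In that list 3 were lower, including the bile acid enzyme gene Cyp8b1 at -2.22 ± 0.19 and the feedback inhibitor gene Spry4 at -1.52 ± 0.24.

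In the PiZ p50KO mice Vldlr was the single member called, lower than in PiZ. This comparison shares the PiZ libraries with the one above. This is 1 of 8 members lower, against 21.6% of genes, and none higher, against 3.36%. At an unadjusted p below 0.05 it was 2 lower and 1 higher (Angptl8), and voom called 1 and 0. Over all genes 447 were higher and 2866 lower, or 1307 and 1210 under the median shift, where Angptl8 was also called higher. With WT PBS 2 kept in the shared fit no member was called, and 0.512% of genes were higher and 2.96% lower.

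Vldlr read 1.38, 0.76, -1.43, 0.90 and -0.09 log2 CPM in the libraries labelled PiZ p50KO 1 to 5, against 2.13 to 2.46 in PiZ. Every p50KO library lay below every PiZ library, and they spread more widely (0.30 ± 1.11 against 2.35 ± 0.13, SD, n = 5 each). The log2 fold change was -2.04 ± 0.37 (adjusted p = 0.000476), or 0.243 of the PiZ level. It was -1.78 (adjusted p = 0.00137) under the median shift and -2.56 (adjusted p = 0.000173) without libraries 1 and 2. With WT PBS 2 kept in the fit the change was the same and the adjusted p was 0.11. In the same libraries 16 of 16 macrophage and 9 of 10 stellate cell markers were called lower than in PiZ, and their part in the Vldlr value was not tested. Without libraries 1 and 2 these counts were 12 and 7, with 1270 of all 13205 genes tested lower.

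The other members overlapped between the PiZ groups. Gdf15 read 2.93, 2.00, 0.68, 3.57 and 4.16 in p50KO 1 to 5, each below the 4 highest PiZ libraries. Its difference of -1.38 ± 0.64 (adjusted p = 0.121) passed only when PiZ 4 was left out, at -1.89 (adjusted p = 0.0248), and was -1.25 (adjusted p = 0.32) without libraries 1 and 2. Fgf21 read -1.42, -1.15, -2.21, 0.45 and 1.87, so 3 libraries were within or below the WT range and 2 were above it. The difference was -0.56 ± 0.75, positive (0.10) under quantile normalization, and it was -0.03 without libraries 1 and 2. The 2 p50KO libraries with high Fgf21 held acinar markers at 1394 CPM (replicate 4) and 108 CPM (replicate 5), against 19.6 to 156 CPM in the other 3, and the part of pancreatic RNA in these values was not tested.

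Stc2 read -4.35, -4.30, -2.21, -2.31 and -2.14 in p50KO, with 2 to 10 reads. Replicates 3 and 5 lay above PiZ 1 and the others below every PiZ library. The difference of -1.68 gave an unadjusted p = 0.02381 in the exact two-sided permutation test, against 0.007937 as the smallest possible. Fitted by limma without any filter, the difference had an adjusted p of 0.294 and did not pass. Without libraries 1 and 2, the lowest of the group, it was -0.84 (exact permutation p = 0.1071). Angptl8 read 4.44, 3.75, 2.82, 3.37 and 3.46, with 4 of 5 above every PiZ library. Its difference was 0.59 ± 0.25 (adjusted p = 0.094), or 0.85 (adjusted p = 0.0251) under the median shift. It passed without p50KO 3 (0.78, adjusted p = 0.0251) and was 0.24 (adjusted p = 0.576) without libraries 1 and 2. Klb (0.21 ± 0.22), Fgfr4 (-0.04 ± 0.19), Angptl4 (-0.24 ± 0.38) and Ddit4 (-0.72 ± 0.73) did not pass, and the signs of Fgfr4 and Angptl4 turned under the median shift, to 0.22 and 0.02. Libraries 1 and 2 left out, these were 0.17 for Klb, -0.15 for Fgfr4, 0.35 for Angptl4 and -0.68 for Ddit4. Fgfr4 read 4.75 in p50KO 3 and 5.49 to 5.74 in the other 4.

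Among the lists, of the 24 ATF4 and CHOP genes 14 were called lower in p50KO than in PiZ, with a median of -1.10 against -0.22 over all genes. Atf3 fell by 3.04 ± 0.91 and Asns fell by 3.20 ± 0.85. Keeping WT PBS 2 left 2 of the 24 called lower, and leaving out p50KO 1 and 2 left 6, with a median of -0.78. Over all genes, leaving out p50KO 1 and 2 left 209 of 13205 higher and 1270 lower, from 447 and 2866 of 13285. Among PPAR-alpha targets 7 of 23 were higher, led by Vnn1 at 3.42 ± 0.33, and 2 were lower, including the fatty acid transporter gene Cd36 at -0.89 ± 0.28, against 3 and 0 without p50KO 1 and 2. Lpl fell by 2.69 ± 0.31. In the FGF list Cyp8b1 rose by 2.39 ± 0.19 and Dusp4 fell by 2.03 ± 0.49. PiZ p50KO and WT PBS were also compared directly. No member was called (10.5% of genes were higher and 1.14% lower), with Angptl8 higher and Vldlr lower at an unadjusted p below 0.05, and voom called none either. With WT PBS 2 kept 11 genes were higher and 1 lower, again with no member among them. The Vldlr difference was -0.79 ± 0.37 (adjusted p = 0.157), which passed without libraries 1 and 2, at -1.31 (adjusted p = 0.0176), and without library 1 alone, at -1.06 (adjusted p = 0.0454). With WT PBS 2 kept Vldlr was at -1.55 (adjusted p = 0.478). Angptl8 passed without p50KO 3, at 0.79 (adjusted p = 0.0416), and was 0.25 (adjusted p = 0.549) without libraries 1 and 2. Stc2, outside the fit, was 0.89 log2 units above WT (exact permutation p = 0.3571), or 1.74 without libraries 1 and 2 (exact permutation p = 0.03571). The Fgfr4 difference of 0.13 turned to -0.10 under the median shift.

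TNFa for 2 hours left no member called in either direction, against 7.63% of genes called higher and 4.05% lower (2.18% and 1.88% with WT PBS 2 kept). At an unadjusted p below 0.05 Klb, Fgf21 and Angptl8 were lower, and voom called 1, Klb. Over all genes 1013 were higher and 538 lower, or 986 and 821 under the median shift.

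Klb came nearest to the threshold. It read 3.36, 4.49, 4.01, 4.88, 4.11 and 3.80 log2 CPM in TNFa 1 to 6, against 4.32 to 5.35 in WT PBS. Library 4, in which Nfkb1 was also lowest of the group, had the highest Klb, and 4 of the 6 lay below every WT PBS library. The difference was -0.63 ± 0.21 (adjusted p = 0.0508). Leaving out TNFa 4 gave -0.79 (adjusted p = 0.00422), TNFa 2 -0.71 (adjusted p = 0.0426) and WT PBS 6 -0.73 (adjusted p = 0.0349), and the median shift gave -0.69 (adjusted p = 0.0202). Keeping WT PBS 2 gave -0.58 (adjusted p = 0.135). Fgfr4, its partner, read 5.32 to 5.70 after TNFa with a difference of 0.17 ± 0.18 (95% interval -0.20 to 0.55).

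Fgf21 was at 2 to 21 reads after TNFa, from -4.23 through a median of -2.57 to -0.94 log2 CPM, against -1.75 to -0.64 in WT PBS. In 4 of 6 libraries it was below every WT library, and the difference was -1.65 ± 0.72 (adjusted p = 0.166). The highest of the group, TNFa 5, was also the library with the most acinar marker RNA, 4511 CPM against 16.0 to 23.8 in WT PBS, and its part in that value was not tested. TNFa 6, with 311 CPM of these markers, read Fgf21 at -2.60, and TNFa 1, with 17.5 CPM, read it at -1.55. Stc2 had no reads in 4 of 6 libraries, as in 1 of 5 of WT PBS, with p = 0.2424 in the exact two-sided permutation test. Gdf15 read 2.40 to 4.16 (difference 0.34 ± 0.61) and Ddit4 1.25 to 3.57 (-0.48 ± 0.70), both inside the WT range, and with WT PBS 2 kept the sign for Gdf15 turned to -0.11. Angptl4 read 5.14 to 7.10, with a difference of -0.60 ± 0.36 (adjusted p = 0.365). Angptl8 read 1.61 to 2.99, with -0.56 ± 0.24 (adjusted p = 0.163), and Vldlr 0.77 to 1.72, with 0.20 ± 0.35. With WT PBS 2 kept the Vldlr sign turned to -0.56.

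Genes of the lists around the members are given next to the 7.63% of all genes called higher after TNFa and 4.05% called lower. Of 18 FGF receptors and FGF-responsive genes 2 were higher and 2 lower. Nr0b2, the repressor SHP, was at -3.65 ± 0.70 and Cyp7a1, the rate-limiting enzyme gene of bile acid synthesis and a target of FGF15 signalling, at -2.97 ± 0.67. Spred1, an inhibitor of the RAS pathway, rose by 1.27 ± 0.14. Of 24 ATF4 and CHOP genes 3 were higher, Slc7a11 by 4.03 ± 0.85 among them, and 1 lower, Sesn2 at -1.16 ± 0.37. Of the lipoprotein genes 3 of 17 were lower, including the endothelial lipase gene Lipg at -1.13 ± 0.31.

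Set directly against TNFa, Vldlr and Angptl8 were called in both PiZ groups, Vldlr in opposite directions. These comparisons share libraries with those above. In PiZ both were higher, Vldlr at 1.05 ± 0.35 (adjusted p = 0.015) and Angptl8 at 0.58 ± 0.24 (adjusted p = 0.0491), against 55.8% of genes called in either direction. The Angptl8 call was lost without any of TNFa 1, 2, 3 or 6 or PiZ 2 to 5, at 0.42 to 0.60. Under the median shift neither passed, at 0.62 (adjusted p = 0.147) for Vldlr and 0.15 for Angptl8, while Fgfr4 was called lower, at -0.44 (adjusted p = 0.0123). Keeping WT PBS 2 in the shared fit also left neither called (adjusted p = 0.25 for Vldlr and 0.386 for Angptl8). In p50KO Angptl8 was higher, at 1.17 ± 0.24 (adjusted p = 0.00169), and Vldlr lower, at -0.99 ± 0.35 (adjusted p = 0.04), against 26.7% of genes. The Vldlr call was lost without TNFa 3, 4, 5 or 6 or p50KO 3 or 5, at -0.97 to -0.56. Neither was called with WT PBS 2 kept (adjusted p = 0.494 for Vldlr and 0.187 for Angptl8), and both were without p50KO 1 and 2, at -1.51 for Vldlr and 0.82 for Angptl8.

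Fgf21 passed the filter on low values only through PiZ libraries, so its calls against TNFa are not counted here. Its difference from TNFa was 2.74 ± 0.72 log2 units in PiZ and 2.19 ± 0.72 in p50KO. Fitted without any filter, these had an adjusted p of 0.00451 and 0.0512. Without PiZ 2, 3 or 5, or p50KO 4 or 5, Fgf21 no longer passed the filter.

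Compared per kilobase of exon, levels in WT PBS ran, as mean log2 CPM per kb, from Angptl4 (4.65) through Fgfr4 (3.50), Angptl8 (3.17), Klb (2.55), Gdf15 (2.03) and Ddit4 (1.96) to Fgf21 (-0.95), Vldlr (-2.23) and Stc2 (-6.33). The SD between libraries was 1.24 log2 units for Gdf15, 1.96 for Ddit4, 0.37 for Fgfr4 and 0.18 for Angptl8. All genes were read in the same libraries, and differences between genes within a library were not tested. In the DMSO libraries of the other table the same scale put Angptl8 first, at 6.29, ahead of Fgfr4 (3.96), Angptl4 (3.30) and Klb (2.69). Batch and vehicle cannot be told apart there. After tunicamycin Fgf21 stood at 3.02 (SD 1.63 between libraries), Klb at 3.22 (SD 0.48) and Fgfr4 at 2.63 (SD 0.80).

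Gdf15 and Ddit4 varied together within groups. Over 72 pairs of members in the 2 tables, deviations from the group means were correlated, with permutations within groups and Benjamini-Hochberg adjustment. The pair gave Pearson's r of 0.83 over the 21 libraries of the first table (p = 7e-05, adjusted p = 0.00252) and Spearman's rho of 0.83 (p = 0.00011, adjusted p = 0.00264), in a permutation test. In the second table r was 0.94 over 12 libraries (permutation p = 1e-05, the smallest these permutations can give, adjusted p = 0.00072) and rho 0.92 (adjusted p = 0.00036). Leaving out the 2 libraries farthest from the median gave 0.77 and 0.82. Within the groups of 6 libraries r was 0.41 after TNFa, 0.95 in DMSO and 0.93 after tunicamycin, and the other groups were too small for a value of their own.

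**Figure D4:**
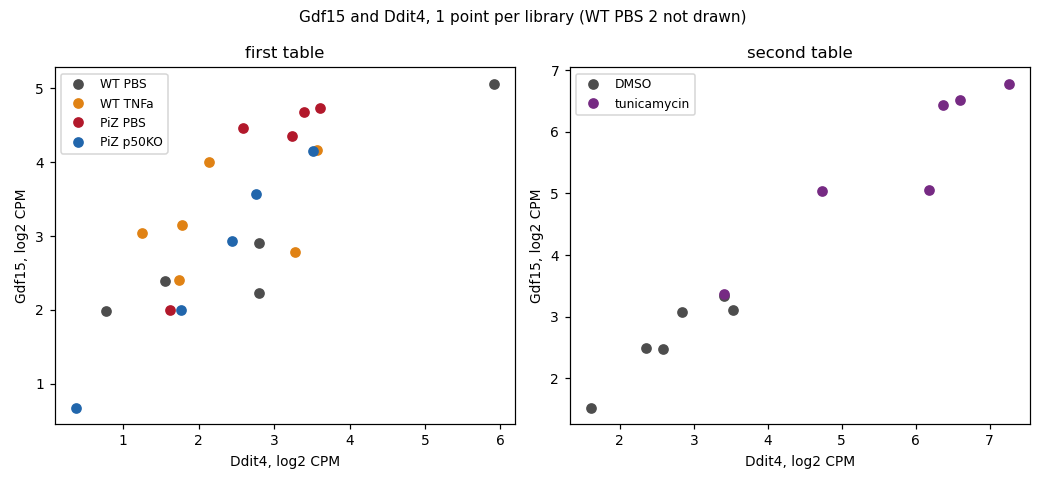
Gdf15 against Ddit4, both in log2 CPM, 1 point per library coloured by group, in the first and the second table. WT PBS 3 sits high in both genes (5.06 and 5.92), PiZ 4 low (2.01 and 1.63), and tunicamycin library 1647 (3.37 and 3.41) lies among the DMSO points.

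In the second table Fgf21 followed both, with r of 0.88 to Gdf15 (permutation p = 0.0012, adjusted p = 0.0216) and 0.84 to Ddit4 (permutation p = 0.00298, adjusted p = 0.0429). These rest partly on 2 libraries, since r was 0.65 and 0.52 without library 1647 and tunicamycin 6, and rho was 0.78 (adjusted p = 0.0924) and 0.72 (adjusted p = 0.138). In the first table Fgf21 and Gdf15 gave an r of 0.37 (permutation p = 0.136, adjusted p = 0.402). Klb and Fgfr4 varied together in the second table, with r of 0.86 (permutation p = 0.00092, adjusted p = 0.0216), 0.67 without DMSO 2 and tunicamycin 6, and rho 0.79 (adjusted p = 0.0924). In the first table their r was 0.48 (permutation p = 0.0083, adjusted p = 0.0854) and rho 0.78 (permutation p = 1e-05, adjusted p = 0.00036).

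Over all 12547 genes expressed in both tables, likeness to a member was taken as the smaller of its 2 correlations, over 21 and 12 libraries. This is a description across libraries that share depth and treatment. Fgf21 was most like Zscan2 (0.81), the stress-inducible Sesn2 (0.81) and Zbtb18 (0.80), Gdf15 like Mrpl17 (0.90), Eif6 (0.89) and Slc35a4 (0.88), and Ddit4 like Timm8a1 (0.81), Gdf15 (0.79) and Phkg2 (0.76). Fgfr4 was most like Ntn3 (0.90), the complement gene Cfb (0.89) and Tmprss6 (0.88), and Klb like Tedc2 (0.79), Fam169b (0.78) and Oaf (0.77). Angptl4 was nearest to Rabgef1 (0.72), Nfu1 (0.72) and Herpud1 (0.68), Angptl8 to Map3k21 (0.80), Arl16 (0.79) and Tdp2 (0.79), and Vldlr to Aig1 (0.82), Rps3a3 (0.75) and Slc38a6 (0.74). Stc2, with its few reads, had no gene above 0.63 (Rab3d).

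The counts of the other lists after tunicamycin stand against 45.3% of all genes higher and 13.5% lower, and those in PiZ against 45.6% and 6.19%. They are given as counts, with nothing called particular to a list. The PPAR-alpha targets split, 7 of 23 higher and 5 lower (3 and 11 under the median shift), with the thioesterase gene Acot2 at 3.11 ± 0.27 and the fatty acid binding protein gene Fabp1 at -2.86 ± 0.40. Of 17 FGF receptors and FGF-responsive genes 4 were higher and 4 lower, including Fgf1 at -3.27 ± 0.31 and Spry4 at -1.58 ± 0.29. Among lipoprotein genes 9 of 18 were lower and 2 higher, with the endothelial lipase gene Lipg at -2.58 ± 0.48 and Angptl6 at 2.67 ± 0.38. The IGF list had 3 of 9 lower and 2 higher, with Igfbp1, an IGF-binding protein gene, rising by 4.20 ± 0.77. Of 13 mTORC1 regulators 5 were higher and 2 lower, with Rheb, the GTPase that activates mTORC1, at 1.10 ± 0.15. Other hepatokines were lower in 10 of 23 and higher in 5, with the ER-resident factor Manf rising by 3.33 ± 0.27. Insulin and carbohydrate-responsive genes, which like Angptl8 follow feeding, were lower in 10 of 15 and higher in 1, with Thrsp at -5.39 ± 0.41 and Srebf1, the lipogenic regulator gene, at -3.23 ± 0.45.

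Glucocorticoid-responsive genes had 6 of 17 higher and 1 lower after tunicamycin, against 45.3% and 13.5% of all genes. In PiZ 5 were higher and 3 lower, against 45.6% and 6.19%. Hypoxia-inducible genes had 2 of 13 higher and 4 lower after tunicamycin and 5 of 14 higher and 3 lower in PiZ. Gdf15 is also a known p53 target. Of other p53 targets 7 of 9 were higher after tunicamycin and 11 of 11 in PiZ (6 of 11 under the median shift). In p50KO 7 of 11 were lower than in PiZ, against 21.6% of genes, with the receptor gene Eda2r at -2.84 ± 0.51. Without p50KO 1 and 2, 6 were lower, with 1270 of all 13205 genes tested lower. In PiZ other hepatokines were higher in 10 of 23 and lower in 2, against 45.6% and 6.19% of all genes. Among the higher were the follistatin-like gene Fstl1 at 2.73 ± 0.26 and the glycoprotein gene Gpnmb at 6.06 ± 0.86. Gpnmb is also in the list of macrophage markers, which summed to 970 to 1390 CPM in PiZ against 281 to 349 CPM in WT PBS. The part of macrophages in the Gpnmb value was not tested. mTORC1 regulators were higher in 7 of 14, with the Ddit4 relative Ddit4l at 2.02 ± 0.47, but in 1 of 14 under the median shift. Insulin-responsive genes were lower in 5 of 15 and higher in 1, and the IGF list was higher in 2 of 9 and lower in 1. After TNFa the inhibin gene Inhbb rose by 3.22 ± 0.55 and the heme oxygenase gene Hmox1 by 3.51 ± 0.47.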

How the data were processed

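Liver polyA RNA was measured by RNA sequencing in 34 libraries, grouped by the genotype and treatment in the labels. The authors deposited log2 CPM per gene in 2 tables, and the submitters' processing notes name bcl2fastq, DRAGEN, STAR, Subread featureCounts, edgeR and the build GRCm38. Values below 300 reads came back as whole reads (within 0.1) in every library, so reads per gene are those behind the deposited log2 values. Repeated rows, 287 in each table, held the same values and were used once. Genes above 1 CPM in at least 5 libraries (first table) or 6 (second) were fitted with limma 3.58.1 (R 4.3.3; trend, all groups of a table in 1 fit, Benjamini-Hochberg over all genes tested, threshold 0.05). WT PBS 2 was left out, leaving 21 libraries in the first fit. The filter left out Stc2 in both tables and Fgf21 in the second, which were compared by exact permutation of the mean log2 CPM over libraries (SciPy 1.17.1). The p-values of these 6 comparisons were not adjusted. ± after a log2 fold change is the SE. The code was tested on simulated data. Deviations of same-numbered libraries from their group means correlated at r from -0.233 to 0.564 between groups. Differently numbered libraries were not set beside them. Replicate numbers were not taken as pairs. Alternatives were other filters, scalings, a robust fit, voom on the recovered reads, 1 CPM added, only the groups compared, a replicate block and leaving out libraries. Voom, the permutation tests and WT PBS 2 kept with shifted medians were added after seeing the data. Named list genes are at most 3 per list and comparison, those called with the largest change. The members and lists were chosen with earlier results of these data known. Promoters are from RefSeq on GRCm38.p6.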

Additional observations from a re-analysis of the deposited data

Results flagged for a closer look

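In 10 of 63 groups of a member's values, 1 library lay far from the others of its group. The rule would flag about 1 in 20 independent groups by chance. These groups are not independent, since WT PBS enters with and without library 2 and the members share libraries. The count is therefore not read against that share. WT PBS 2 accounts for 5 of the 10. It read 2.04 log2 CPM for Fgf21 (the other WT PBS libraries -1.75 to -0.64), 3.89 for Stc2 (-6.52 to -2.70), 4.14 for Angptl4 (6.12 to 6.73), -0.33 for Angptl8 (2.78 to 3.27) and 5.65 for Vldlr (0.70 to 1.81).

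Gdf15 read 2.01 in PiZ 4 against 4.36 to 4.74 in the other PiZ libraries. Stc2 read -2.28 in PiZ 1 against -1.29 to -0.91. Fgfr4 read 4.75 in the library labelled PiZ p50KO 3 against 5.49 to 5.74, and 4.92 in DMSO 2 against 5.80 to 6.12. Fgf21 read -0.17 in tunicamycin library 1647 against 2.87 to 4.63 in the other 5. That library also had the lowest Gdf15 (3.37), Ddit4 (3.41) and Angptl4 (6.40) and the highest Fgfr4 (5.59), Klb (5.90), Vldlr (3.96) and hepatocyte marker sum (84210 CPM) among the tunicamycin libraries.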

How the results depend on the processing

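Each result was recomputed with 1 choice changed, or 2 where WT PBS 2 was kept and libraries were also shifted. Of 1033 such recomputed results that carry a test, 901 kept their direction and side of the threshold, 65 fell short of it, 22 newly passed and 45 turned sign; the cause was not tested. The edgeR and DESeq2 alternatives that had been planned were not run, because the files hold log2 values, and voom stood in for them. Depth limits Stc2 and Fgf21, which had under 1 CPM in most libraries.

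With WT PBS 2 kept, genes called went from 6886 to 2336 (PiZ against WT PBS), 1551 to 547 (TNFa against WT PBS), 3313 to 468 (PiZ p50KO against PiZ), 1550 to 12 (PiZ p50KO against WT PBS), 7416 to 3406 (PiZ against TNFa) and 3551 to 521 (PiZ p50KO against TNFa). Counts of members against TNFa include Fgf21, which entered those fits only through PiZ libraries and, where it was kept, WT PBS 2. Members called went from 1 higher to 0 in PiZ against WT, 1 lower to 0 in PiZ p50KO against PiZ, 3 higher to 1 in PiZ against TNFa, and 2 higher and 1 lower to 0 and 0 in PiZ p50KO against TNFa. Signs turned for Gdf15 (-0.11) and Vldlr (-0.56) after TNFa and for Stc2 in PiZ p50KO against WT (-0.41). With it kept and libraries also shifted to the same median, these members called were again 0, 0, 1, 0 and 0. Genes called were 1706 in PiZ against WT, 368 in PiZ p50KO against PiZ, 12 in PiZ p50KO against WT, 2483 in PiZ against TNFa and 870 in PiZ p50KO against TNFa. Signs turned for Fgfr4 (-0.12) and Ddit4 (-0.16) in PiZ, for Angptl4 (0.0029), Angptl8 (0.20) and Vldlr (-0.34) after TNFa, and for Fgfr4 (0.23) and Angptl4 (0.024) in PiZ p50KO against PiZ.

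Shifting libraries to the same median called 0 members higher and 2 lower in PiZ against WT, 1 lower after TNFa, 1 higher in PiZ p50KO against PiZ, and 1 higher and 1 lower in PiZ against TNFa. It called 1000 genes in PiZ p50KO against WT. Signs turned for Fgfr4 (-0.33), Angptl8 (-0.48) and Ddit4 (-0.37) in PiZ, Fgfr4 (0.22) and Angptl4 (0.021) in PiZ p50KO against PiZ, Fgfr4 (-0.10) in PiZ p50KO against WT and Stc2 (-0.065) after tunicamycin. Quantile normalization called 0 members higher and 1 lower in PiZ against WT, 1 lower after TNFa, 1 higher in PiZ p50KO against PiZ, 0 higher in PiZ against TNFa, 1 higher in PiZ p50KO against TNFa, and 595 genes in PiZ p50KO against WT. Signs turned for Fgf21 (-0.057), Fgfr4 (-0.195), Angptl8 (-0.57) and Ddit4 (-0.48) in PiZ, Fgf21 (0.10) and Fgfr4 (0.16) in PiZ p50KO against PiZ, and Fgfr4 (-0.035) in PiZ p50KO against WT.

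Without a filter 2 members were higher in PiZ against WT, 819 genes were called in PiZ p50KO against WT, and 1 member was higher and 0 lower in PiZ p50KO against TNFa. With only the 2 groups compared in the fit, 2180 genes were called in PiZ p50KO against PiZ, 225 in PiZ p50KO against WT and 2169 in PiZ p50KO against TNFa, with 1 member higher and 0 lower in the last. In PiZ p50KO against TNFa, 1 member was higher with 1 CPM added and with the stricter filter of 4 CPM, and 1 higher and 0 lower by voom. Klb was called lower after TNFa, as 1 member, by the robust fit and by voom.

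The replicate block, which rests on numbers that were not taken as pairs in the main fit, called 1 member lower after TNFa, 795 genes in PiZ p50KO against WT, and 1 member higher and 0 lower in PiZ p50KO against TNFa. Under the replicate block the signs of Angptl8 (-0.0008) and Ddit4 (-0.076) turned in PiZ against WT.

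Without PiZ p50KO 1 and 2, genes called were 1479 against PiZ and 2427 against WT, 1 member was called lower than in WT, and Angptl4 against PiZ was 0.35. Leaving out 1 library at a time turned signs of differences that had not passed. In PiZ against WT, Angptl8 ran from -0.063 to 0.12 and Ddit4 from -0.38 to 0.91. After TNFa, Ddit4 ran from -0.98 to 0.31. In PiZ p50KO against PiZ, Fgfr4 ran from -0.15 to 0.14 and Angptl4 from -0.43 to 0.088. In PiZ p50KO against WT, Gdf15 ran from -0.62 to 0.29, Klb from -0.21 to 0.051, Fgfr4 from -0.026 to 0.30 and Ddit4 from -1.10 to 0.19. Genes called ran from 2197 (without p50KO 1) to 3770 in PiZ p50KO against PiZ and from 703 (without p50KO 4) to 2113 (without p50KO 1) in PiZ p50KO against WT. Members called higher ran from 1 to 2 in PiZ against WT, 0 to 1 in PiZ p50KO against PiZ and against WT, 1 to 4 in PiZ against TNFa, 1 to 3 in PiZ p50KO against TNFa and 4 to 5 after tunicamycin. Members called lower ran from 0 to 1 after TNFa, 1 to 2 in PiZ p50KO against PiZ, and 0 to 1 in PiZ p50KO against WT and against TNFa.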
